A study of Homo sapiens with 17 samples.

Results

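Guanylate-binding proteins (GBPs) were measured over 24 h with TRAIL, a death-receptor ligand related to TNF, in MDA-MB-231. This established line derives from a human breast tumour of the triple-negative kind. The genes GBP1, GBP2, GBP3, GBP4 and GBP5 were taken by symbol, as 5 of the 58870 entries of the deposited table. They were chosen by the measured level of GBP4, which was higher at 24 h than at 0 h, so values of that comparison are given as a description without a test. There were 17 libraries: 3 each at 0, 3, 6, 12 and 24 h and 2 at 1 h. All of them, those at 0 h included, carry the label of treatment with 45 nM TRAIL, and the line is labelled as mesenchymal and basal B. No untreated library of a later time was among the 17, so effects of TRAIL and of hours in culture or of handling cannot be told apart. The labels do not say whether replicates were separate cultures, so p-values measure only the spread between these libraries. In bulk RNA, fewer cells with a transcript and less of it per cell cannot be told apart either.

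GBPs are large GTPases related to dynamin. They are best known as products of interferon gamma signalling, in which the receptor activates JAK kinases and the transcription factor IRF1 is among those that bind the promoters of target genes. The proteins assemble on the membranes of bacteria and of the vacuoles that hold microbes, and GBP1, GBP2 and GBP5 carry a lipid anchor added by prenylation. TRAIL receptors start apoptosis through caspases and can also activate NF-kappaB, a factor that works beside IRF1 at some interferon target genes.

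The 5 genes lie in 1 cluster on the minus strand of chromosome 1, and all are annotated as protein-coding (positions of GENCODE 29 on GRCh38). GBP3 (ENSG00000117226) spans chr1:89006666-89022894, GBP1 (ENSG00000117228) chr1:89052319-89065360 and GBP2 (ENSG00000162645) chr1:89106132-89150456. GBP4 (ENSG00000162654) spans chr1:89181148-89198932 and GBP5 (ENSG00000154451) chr1:89258950-89272804. The annotated span of GBP2 overlaps that of its neighbour GBP7, at chr1:89131751-89176040 on the same strand.

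Promoter sequences were held by RefSeq (GRCh38.p14) for 3 of the 5 genes, GBP1, GBP3 and GBP4, as windows from 250 bases before to 50 after the annotated start. They are shown because the 5 genes share a family and a neighbourhood but did not follow 1 course in the libraries. GBP2, which was lowest at 6 h, had no window, so its promoter could not be set beside the 3 shown. Capitals mark matches, on either strand, to the interferon-stimulated response element (ISRE, a GAAA on each side of any pair of bases), to the gamma-activated site (GAS, TTCNNNGAA) or to an NF-kappaB site (a GGG, any 3 bases and then a TTCC), where N is any base. All 3 windows read from the minus strand, 5′ to 3′, and cover chr1:89065159-89065458 for GBP1, chr1:89022817-89023116 for GBP3 and chr1:89198893-89199192 for GBP4.
GBP1: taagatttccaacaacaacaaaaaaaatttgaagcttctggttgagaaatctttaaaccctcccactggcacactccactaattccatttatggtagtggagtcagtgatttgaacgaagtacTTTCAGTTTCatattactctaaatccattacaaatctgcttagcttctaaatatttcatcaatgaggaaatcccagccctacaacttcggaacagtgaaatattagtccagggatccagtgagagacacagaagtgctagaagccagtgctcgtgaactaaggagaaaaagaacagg
GBP3: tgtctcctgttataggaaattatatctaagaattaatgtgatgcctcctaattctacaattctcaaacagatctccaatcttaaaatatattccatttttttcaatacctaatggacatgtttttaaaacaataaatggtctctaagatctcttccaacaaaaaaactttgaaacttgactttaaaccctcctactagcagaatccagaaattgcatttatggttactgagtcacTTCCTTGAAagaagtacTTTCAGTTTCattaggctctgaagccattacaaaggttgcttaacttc
GBP4: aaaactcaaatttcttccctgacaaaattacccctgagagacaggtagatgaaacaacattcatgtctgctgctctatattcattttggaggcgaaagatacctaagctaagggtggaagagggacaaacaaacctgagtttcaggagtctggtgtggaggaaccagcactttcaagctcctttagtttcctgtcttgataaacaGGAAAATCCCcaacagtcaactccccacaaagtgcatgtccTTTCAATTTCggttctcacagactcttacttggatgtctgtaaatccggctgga
Each window held 1 ISRE match, at bases -127 to -118 for GBP1, 3 to 12 for GBP3 and -4 to 6 for GBP4. Bases were counted from the RefSeq start site as base 1, with no base 0. The GENCODE spans start elsewhere within these windows, at chr1:89065360 for GBP1, chr1:89022894 for GBP3 and chr1:89198932 for GBP4. Where a match lies relative to the start therefore depends on the annotation used. GBP3 also held a GAS match at -15 to -7, and GBP4 an NF-kappaB match at -45 to -36. No match overlapped another. Of 35116 promoter windows of the same length, 3.57% held the ISRE letters, 7.66% the GAS letters and 6.52% the NF-kappaB letters. GBP1 and GBP3 shared a stretch of 19 bases around the ISRE, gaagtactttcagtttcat, while GBP4 shared at most 9 with either. A match of letters is a description and does not show that a factor was bound.

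Levels are given as CPM, which are counts divided by the library's total after TMM scaling. Total counts per library ran from 13731520 to 19234924, and 20206 to 20975 genes had at least 1 count. Mitochondrial genes took 3.66% to 9.71% of the counts. All 6 markers of mesenchymal basal B cells were above 1 CPM in every library. Among the 6 luminal and epithelial markers, GATA3 and EPCAM were above 1 CPM in every library. ESR1, PGR and FOXA1 had 0 to 2 counts in any library, and CDH1 averaged 0.323 to 0.609 CPM by time. Of 6 leukocyte markers, CSF1R was above 1 CPM in every library and CD14 averaged 1.01 to 1.62 CPM by time, while CD3E, which marks T cells, was at 0 throughout. Replicates 2 and 3 at 6 h, and replicates 2 and 3 at 24 h, were closer to each other than other replicate pairs, with a chi-square statistic per gene of 1.55 and 1.68 against 3.86 to 14.6. A value near 1 would mean sampling noise alone. Both pairs were kept as separate libraries, though the labels do not say whether each came from 1 culture or preparation. If so, the spread at 6 h and 24 h is understated. GBP1 and GBP3 counts were not whole numbers in 15 and 14 of the 17 libraries, but their sum was whole in 15 (within 0.005), so fragments were divided between these 2 genes, and the split between them is less certain than their sum.

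Per kilobase of the longest coding transcript, the order at 0 h was GBP3 at 22.4 ± 1.88 CPM per kb (SD, n = 3), GBP2 at 16.5 to 17.5 in its 3 libraries, GBP1 at 15.5 to 17.2, GBP4 at 0.775 ± 0.191 and GBP5 at 0.0662 ± 0.0132. The libraries of GBP2 and GBP1 overlapped in this order. The longest coding transcript of GBP2 has 2220 bases, but its longest transcript of any kind has 3687. For GBP3 these lengths are 3067 and 3678, and for GBP1 both are 3035. The rank of GBP2 beside GBP1, and its share below, therefore depend on the length chosen. At 3 h the GBP1 libraries, at 17.6 to 18.7, were already above those of GBP2, at 14.6 to 16.8. At 6 h GBP3 stood at 28.9 ± 1.79, GBP1 at 19.5 ± 0.794 and GBP2 at 10.6 ± 0.671 CPM per kb. As a share of the family's summed CPM per kb, GBP2 took 30.2 ± 0.957% at 0 h, 17.6 ± 1.36% after 6 h and 24.9 ± 1.67% after 12 h. GBP3 held 39.7% at 0 h and 48.0 ± 2.48% at 6 h. GBP4 held 1.37 ± 0.253% at 0 h and 2.95 ± 0.389% at 24 h, and GBP5 at most 0.176% on average at any time.

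**Figure D1:**
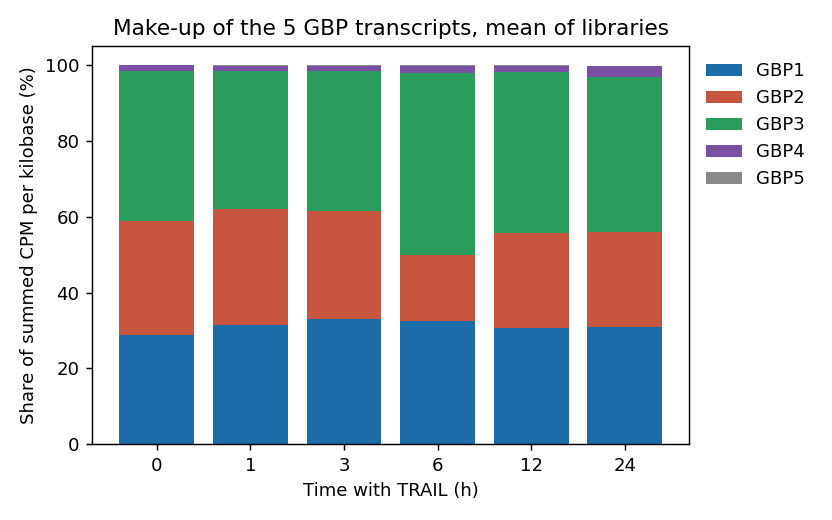
Share of each gene (percent of the summed CPM per kilobase of the family) at each time in hours, as means over the 2 or 3 libraries. GBP2 took its smallest share at 6 h (17.6%) and GBP3 its largest (48.0%).

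GBP2, which carries a geranylgeranyl anchor, was lowest at 6 h. It stood at 37.5, 36.7 and 38.8 CPM in the 0 h libraries and at 37.5 and 46.8 CPM after 1 h. The 3 h libraries had 37.3, 32.5 and 34.5 CPM, the 6 h libraries 25.2, 22.5 and 22.8, and the 12 h libraries 35.3, 32.4 and 35.9. At 24 h it stood at 41.3, 36.7 and 39.5 CPM, which overlapped the 0 h libraries. All 6 h libraries lay below every other library.

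From 3 h to 6 h GBP2 fell by 0.57 on the log2 scale (SE 0.088, 95% interval -0.75 to -0.38, edgeR quasi-likelihood adjusted p = 9.9e-05). From 6 h to 12 h it rose by 0.55 (SE 0.086, interval 0.37 to 0.73, adjusted p = 1.8e-04). Both steps use the 6 h libraries, so they are not independent of each other. Against 0 h, GBP2 at 6 h was lower by a log2 change of -0.68 (SE 0.086, adjusted p = 1.8e-05). At 12 h against 0 h the change of -0.13 did not pass the test (interval -0.30 to 0.05, adjusted p = 0.339). Called here means an adjusted p below 0.05. The background matters for reading these calls: 43.2% of the 15365 genes tested were called between 3 h and 6 h, 20.6% between 6 h and 12 h, and 30.1% between 0 h and 6 h.

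GBP3, whose best known role is also in interferon-driven defence, moved the other way at 6 h. It measured 67.7, 63.4 and 74.8 CPM at 0 h, 69.9 and 68.7 at 1 h, then 62.9, 58.0 and 66.9 in the 3 h libraries. The later libraries had 82.3, 92.0 and 91.6 CPM after 6 h, 76.3, 83.4 and 84.2 after 12 h, then 85.8, 89.0 and 87.3 after 24 h. Every library from 6 h on was above every library up to 3 h.

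Between 3 h and 6 h, GBP3 rose by 0.50 on the log2 scale (SE 0.07, interval 0.35 to 0.65, adjusted p = 5.0e-05). Between 6 h and 12 h the change of -0.12 did not pass the test (interval -0.27 to 0.02, adjusted p = 0.215), though it did after correction for length and GC content (-0.15, adjusted p = 0.0241). GBP3 was higher than at 0 h by 0.37 at 6 h (SE 0.069, adjusted p = 7.4e-04). At 12 h it was higher by 0.25 (SE 0.069, adjusted p = 0.0252), against a background of 12.4% of genes called. The 12 h call was lost without 0 h replicate 1 (0.23, adjusted p = 0.091), 0 h replicate 2 (0.19, adjusted p = 0.129), 12 h replicate 2 (0.23, adjusted p = 0.103) or 12 h replicate 3 (0.22, adjusted p = 0.0849).

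GBP1, a farnesylated GTPase that coats cytosolic bacteria, was lowest at 0 h and highest at 24 h. It stood at 47.1, 47.6 and 52.3 CPM at 0 h, 60.3 and 57.5 after 1 h, then 56.8, 53.5 and 55.5 after 3 h. The 6 h libraries had 60.8, 60.2 and 56.4 CPM. After 12 h GBP1 stood at 54.5, 61.3 and 59.2 CPM, and after 24 h at 67.5, 64.0 and 65.2. The 0 h libraries were below all others, and the 24 h libraries above all others.

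GBP1 was higher than at 0 h by 0.27 at 6 h on the log2 scale (SE 0.063, adjusted p = 0.00383) and by 0.25 at 12 h (SE 0.063, adjusted p = 0.013). The 12 h call was lost without 0 h replicate 1 (0.22, adjusted p = 0.0687), 0 h replicate 2 (0.23, adjusted p = 0.0557) or 12 h replicate 2 (0.22, adjusted p = 0.08). At 1 h the change of 0.26 had an unadjusted p of 0.00126 but an adjusted p of 0.223, where 0.312% of genes were called. At 3 h the change of 0.17 had an adjusted p of 0.0681, against 17.7% of genes called, and passed without 0 h replicate 3 (0.22, adjusted p = 0.0489) and with the correction for length and GC content (0.19, adjusted p = 0.0162). Between 3 h and 6 h GBP1 did not pass the test (0.10, interval -0.03 to 0.23, adjusted p = 0.221), but it passed when only library size was used for scaling (0.17, adjusted p = 0.0496). The comparisons with 0 h, and that of 24 h with 12 h, share libraries with the comparison by which the genes were picked.

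Because fragments were divided between GBP1 and GBP3, their summed counts were also fitted as 1 entry, a choice made after the data were seen. The sum rose by 0.33 from 3 h to 6 h (SE 0.06, adjusted p = 3.2e-04) and was higher than at 0 h by 0.33 at 6 h (adjusted p = 5.2e-04) and 0.25 at 12 h (adjusted p = 0.0102). The ratio of GBP1 to GBP3 counts was 0.885 ± 0.0489 at 3 h and 0.670 ± 0.0631 at 6 h (SD, n = 3 each).

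GBP4 is a less abundant member without the lipid anchor signal of GBP1. It stood at 3.98, 4.17 and 6.10 CPM at 0 h (64, 67 and 98 counts), 4.43 and 5.33 after 1 h, then 4.0, 4.74 and 5.20 after 3 h. The 6 h libraries had 6.70, 7.83 and 6.37 CPM, and the 12 h libraries 8.23, 6.62 and 5.89. At 24 h it stood at 10.9, 13.9 and 12.9 CPM (187, 225 and 194 counts). All 3 libraries at 24 h were above every earlier library, the pattern for which the genes were picked.

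The mean was 12.6 ± 1.52 CPM at 24 h and 4.75 ± 1.17 CPM at 0 h. In the model 24 h was 2.65-fold 0 h, a log2 change of 1.41 (1.23 to 1.62 over the alternatives). The corresponding log2 changes were 0.42 for GBP1, 0.06 for GBP2 and 0.35 for GBP3, where 35.1% of all genes were called, and nothing is read from these values. For GBP4, 24 h also exceeded 12 h by 0.88, 6 h exceeded 0 h by 0.55 and 12 h exceeded 0 h by 0.53, without a test since the 0 h and 24 h libraries chose it. At 24 h the summed level of 3 endothelial markers was 2.85 to 4.10 CPM against 1.06 to 1.93 CPM at 0 h; PECAM1 made up most of it, CDH5 had 0 to 2 counts and VWF 0 to 5 in any library, and their part in the 24 h level of GBP4 was not tested.

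Among the libraries that the choice did not use, GBP4 rose between 3 h and 6 h by 0.57 on the log2 scale (SE 0.18, interval 0.21 to 0.94, adjusted p = 0.0124). The 3 h and 6 h libraries did not overlap. This call was lost with the correction for length and GC content (0.39, adjusted p = 0.0644), without 3 h replicate 1 (0.47, adjusted p = 0.0681) and without 6 h replicate 2 (0.49, adjusted p = 0.0594). GBP4 has the longest transcript of the family, 6127 bases. Between 6 h and 12 h its change was -0.02 (interval -0.35 to 0.32, adjusted p = 0.956), and the sign turned under several alternatives.

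GBP5, which like GBP2 has a geranylgeranyl anchor, was nearly absent and did not pass the filter on low counts. The 0 h libraries held 6, 4 and 5 counts, those at 1 h 4 and 4, and those at 3 h 3, 1 and 3. After 6 h there were 2, 3 and 7 counts, after 12 h 4, 5 and 6, and after 24 h 11, 9 and 8. The 24 h libraries were the highest. Summed over the group, its level was 0.311 CPM at 0 h (95% Poisson interval 0.174 to 0.513) and 0.581 CPM at 24 h (0.386 to 0.84), intervals that cover counting error only. The remaining family genes GBP6 and the pseudogene GBP1P1 had at most 2 counts in any library, and GBP7 had 1 count in 1 of the 17.

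**Figure D2:**
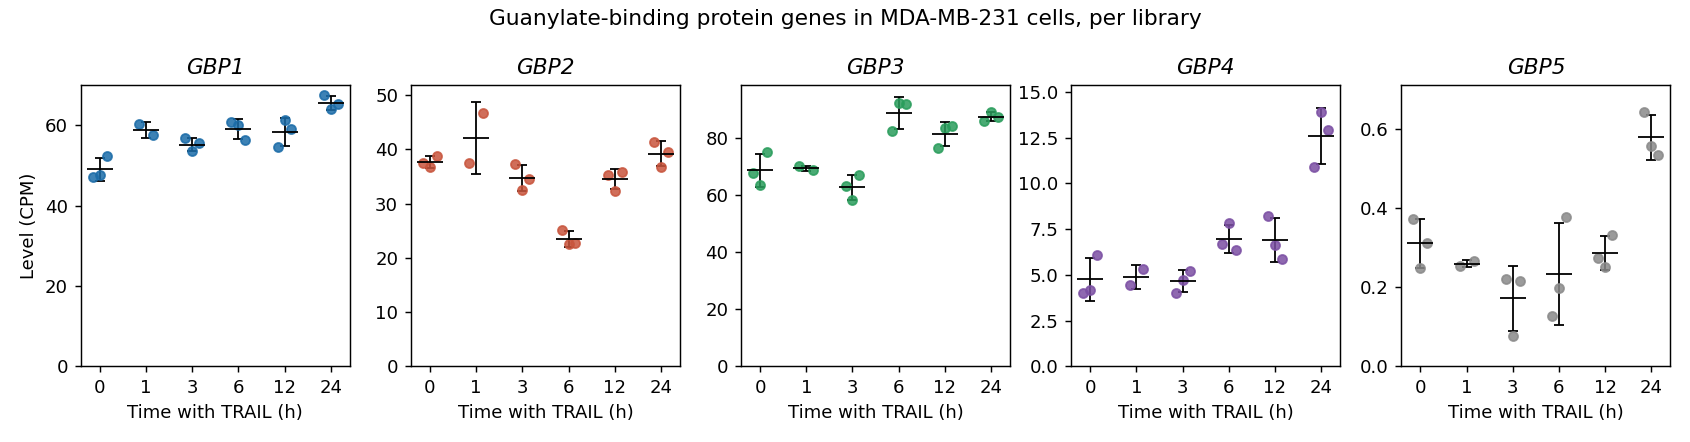
Level of each gene (CPM, linear axis from 0, own scale per panel) in each library against time in hours, evenly spaced, with a point per library, a bar for the mean and error bars for the SD. GBP2 dips at 6 h (mean 23.5 CPM) while GBP3 is higher from 6 h on, and GBP4 is highest at 24 h.

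Over 1, 3, 6 and 12 h together (11 libraries, in the model of all 17), 3 of the 4 genes that passed the filter differed between times: GBP2 (F-test, adjusted p = 8.9e-06), GBP3 (adjusted p = 6.5e-05) and GBP4 (adjusted p = 0.0124). GBP1 did not (adjusted p = 0.475), and summed with GBP3 the pair did (adjusted p = 8.7e-04). Of all genes, 55.7% passed this test, so a count of 3 in 4 is not set apart from the background. With the correction for length and GC content GBP4 was lost (adjusted p = 0.0659). Between 1 h and 3 h, 0 of the 4 genes were called by edgeR's quasi-likelihood test, where 5.73% of genes were; GBP2, at -0.28, had an unadjusted p of 0.00805 and an adjusted p of 0.0905. Leaving out 1 h replicate 1 gave -0.43 and an adjusted p of 0.0332, with the lone library left at 1 h assumed to vary like the others. Between 12 h and 24 h 0 of GBP1, GBP2 and GBP3 were called, with log2 changes of 0.17, 0.18 and 0.10, unadjusted p-values of 0.0144, 0.0387 and 0.154 and a background of 12.0%.

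**Figure D3:**
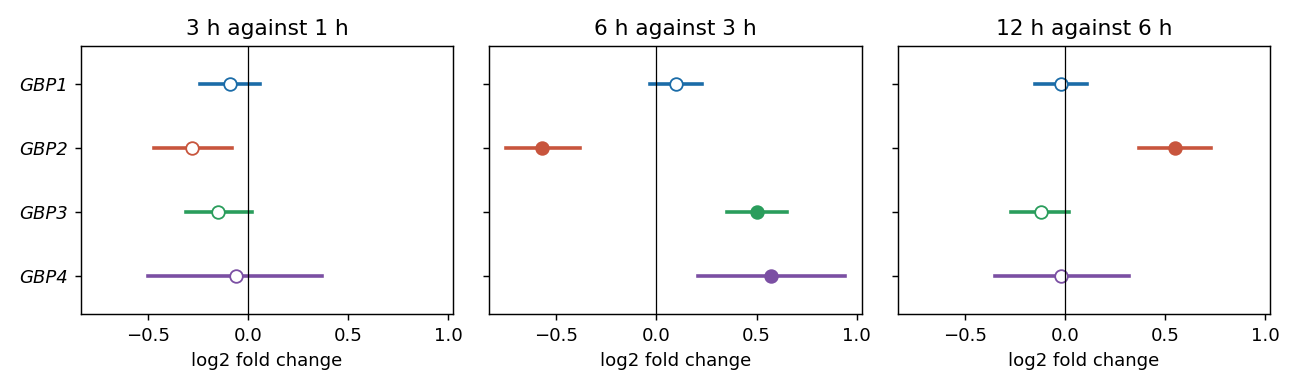
Log2 fold changes of the 4 genes tested, with 95% intervals, in the steps from 1 h to 3 h, from 3 h to 6 h and from 6 h to 12 h. Filled points passed the test: GBP2 down (-0.57), GBP3 up (0.50) and GBP4 up (0.57) from 3 h to 6 h, and GBP2 up (0.55) from 6 h to 12 h.

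The contrast between GBP2 and the GBP1 and GBP3 pair was examined within each library as the ratio of their counts, which no scaling between libraries can move. This measure was chosen after the data were seen. The ratio was 0.288 and 0.371 after 1 h, then 0.312, 0.292 and 0.282 after 3 h. After 6 h it was 0.176, 0.148 and 0.154, and after 12 h 0.270, 0.224 and 0.250. The 6 h libraries were lower than all others, the 0 h libraries (0.321 ± 0.0135, SD, n = 3) and 24 h libraries (0.256 ± 0.0148) included. Since the ratio was built from the directions already seen, it is a description and no test is given.

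**Figure D4:**
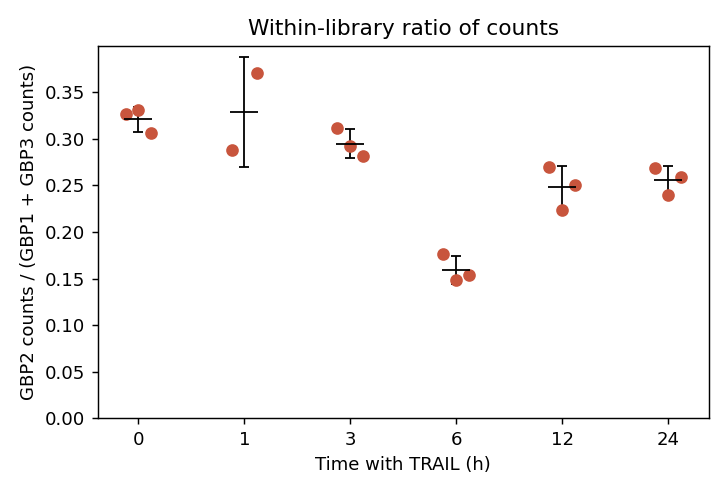
Ratio of GBP2 counts to the sum of GBP1 and GBP3 counts in each library against time in hours, with the mean and SD of each time. The 3 libraries at 6 h (0.148 to 0.176) lie below all others.

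Libraries at 3 h and 6 h also differed in properties that are not specific to GBPs. Mitochondrial genes took 7.99% to 8.97% of counts at 3 h and 3.97% to 5.45% at 6 h, and the slope of a library's log2 CPM deviations against the log of transcript length was -0.11 to -0.07 at 3 h and 0.01 to 0.09 at 6 h. With length and GC content corrected, GBP2 still fell by 0.60 (adjusted p = 1.6e-05) and GBP3 still rose by 0.42 (adjusted p = 3.3e-06) from 3 h to 6 h. The mitochondrial share and the slope differed between 0 h and 24 h too. The share was 5.53% to 8.37% at 0 h and 3.66% to 4.14% at 24 h. The slope was -0.05 to -0.01 at 0 h and 0.02 to 0.13 at 24 h. The part of both in the 24 h level of GBP4 was not tested. The summed level of 6 leukocyte markers was 6.10 to 6.85 CPM at 0 h, 6.58 to 7.07 at 1 h and 4.82 to 5.67 at 3 h. It was 4.05 to 4.55 CPM at 6 h, 4.27 to 6.03 at 12 h and 7.06 to 8.02 at 24 h. It came mostly from the myeloid markers CSF1R (4.69 ± 0.217 CPM at 0 h, 3.02 ± 0.446 at 6 h) and CD14 (1.43 ± 0.107 and 1.01 ± 0.314 CPM). PTPRC, the marker common to leukocytes, had 0 to 5 counts in any library, and the T cell marker CD3E was at 0. Their part in the course of GBP2 was not tested.

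Over all 17 libraries, log2 CPM of GBP1, GBP3 and GBP4 correlated with each other (Pearson r of 0.66 to 0.76), while r of GBP2 was -0.04 with GBP1, -0.41 with GBP3 and -0.03 with GBP4. These are descriptions over libraries that share times and depth effects. The genes most like each member, among 12408 whose average log2 CPM reached 1, were TSPAN15 (r = 0.955), BMP4 (0.948), IFITM1 (0.924), AKR1C3 (0.918) and TENT5B (0.917) for GBP2. For GBP3 they were SOS2 (0.963), CLDN12 (0.961), DEPDC1 (0.958), SCYL2 (0.958) and WASHC4 (0.957). For GBP4 they were CDK15 (0.934), MTMR3 (0.933), RFX5 (0.923), SSTR2 (0.919) and CTNND1 (0.919), and for GBP1, ZSCAN2 (0.819), CD55 (0.816), TNFRSF9 (0.813), SLC39A9 (0.800) and GPRC5B (0.797). IFITM1, an interferon-induced membrane protein that limits virus entry, is the one among these that also stood on the interferon lists.

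The interferon ligand genes on the lists, IFNG, IFNB1 and IFNL1, were at or near 0. Other interferon genes were not examined. IFNG, the interferon gamma gene, and IFNB1 had 0 counts in all 17 libraries, which allows up to 0.0111 CPM over all of them (3 counts). IFNL1 had 0 to 4 counts per library. Among targets of interferon gamma, CXCL9 and IRF8 were also at 0 throughout, but the related chemokine genes CXCL10 and CXCL11 were not. CXCL10 had 0 to 4 counts per library at 0 h and 9 to 11 at 12 h, a called log2 change of 2.84 (SE 0.84, adjusted p = 0.0322) on few counts. That call was lost without 0 h replicate 2 or 3 or any 1 of the 12 h libraries (adjusted p of 0.00256 to 0.126 over the alternatives), and without 0 h replicate 1 both 0 h libraries left were at 0. CXCL11 had 5 to 10 counts per library at 0 h and was higher by 1.09 at 6 h (SE 0.34, adjusted p = 0.0196) and by 1.26 at 12 h (SE 0.33, adjusted p = 0.0164). The 6 h call of CXCL11 was lost without 0 h replicate 2 or 3 or 6 h replicate 3, with the close pairs averaged, without the filter and with DESeq2, and the 12 h call without 0 h replicate 2 or 3 or 12 h replicate 1 or 2 (highest adjusted p of 0.0982 and 0.0754).

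IRF1, the transcription factor that activates many GBP promoters, fell from 3 h to 6 h by 0.49 (SE 0.067, edgeR adjusted p = 3.9e-05) and rose from 6 h to 12 h by 0.28 (SE 0.067, adjusted p = 0.00641). Its level averaged 62.8 ± 4.72 CPM at 0 h and 78.0 ± 3.19 after 3 h (SD, n = 3 each). After 6 h the average was 55.5 ± 1.03 CPM and after 12 h 67.1 ± 1.66 (n = 3 each). IRF1 at 3 h was higher than at 0 h by 0.31 (edgeR adjusted p = 0.00329). STAT3, which carries signals of the interleukin-6 family, rose from 3 h to 6 h by 0.53 (adjusted p = 1.3e-05). JAK2, a kinase at the interferon gamma receptor, had a change of 0.29 in that step that did not pass the test (adjusted p = 0.186). Against 0 h at 6 h, STAT3 was higher by 0.55 (SE 0.064, adjusted p = 7.8e-06) and SOCS3, an inhibitor of JAK kinases, was lower by a log2 change of -0.62 (SE 0.079, adjusted p = 1.8e-05). IRF2, a factor at the same DNA element as IRF1, was higher by 0.44 at 12 h (SE 0.083, adjusted p = 0.00186). JAK1, another kinase at the receptor, was higher at 12 h by 0.24 (adjusted p = 0.0212), a call lost without 0 h replicate 1 or 2 or 12 h replicate 2 or 3 (highest adjusted p of 0.115).

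Of 13 tested genes of interferon gamma receptor and JAK-STAT signalling, 6 rose and 2 fell at 6 h against 0 h, with a median of 0.20 beside -0.022 for all genes. The 6 became 3 with upper-quartile scaling. Those that fell were SOCS3 and IRF1, and IRF1, which lay at the threshold (-0.18, adjusted p = 0.0488), was lost in 17 of 31 alternatives (adjusted p of 0.0103 to 0.208), 12 of which left out 1 library. Among all genes, 16.9% were higher and 13.2% lower in this comparison. Of 20 interferon gamma-inducible genes tested, 8 rose and 3 fell from 3 h to 6 h, where 22.9% of all genes rose and 20.3% fell. The count of 8 was the same in every alternative run. ICAM1, an adhesion molecule, was higher at 6 h than at 0 h (1.21, SE 0.067, adjusted p = 4.8e-10), and TAP1, a peptide transporter for antigen presentation, was higher by 0.45 (adjusted p = 1.2e-05). PSMB10, an immunoproteasome subunit, was lower (-0.37, adjusted p = 0.026), a call lost without 0 h replicate 1 or 2 or 6 h replicate 2 or 3, with those 6 h replicates averaged, and with the length and GC correction (-0.15; adjusted p of 3.7e-04 to 0.106 over all alternatives). WARS, a tRNA synthetase, was higher at 12 h than at 0 h by 0.19 (adjusted p = 0.0341), a call lost without any 1 of the 0 h or 12 h libraries, with the close pairs averaged and without the filter (highest adjusted p of 0.141).

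Of 36 type I interferon-stimulated genes tested, 17 were lower and 3 higher at 6 h than at 0 h. In that comparison 13.2% of all genes were called lower and 16.9% higher. The list had a median of -0.27. Without 6 h replicate 3 the count of lower genes was 10, and the count of higher genes was 1 without 0 h replicate 1 or 6 h replicate 2, or with the close pairs averaged. IFIT1, which binds foreign RNA, was lower (-0.74, adjusted p = 6.3e-07), as were MX1, a dynamin-like antiviral GTPase (-0.48, adjusted p = 0.00203), and IFITM1 (-0.68, adjusted p = 4.2e-05). OAS1, which makes a messenger that activates RNase L, was lower by a log2 change of -1.07 (adjusted p = 0.0114), a call lost without 6 h replicate 2 (-0.92, adjusted p = 0.0583) or 3 (-0.95, adjusted p = 0.0626) and with the close pairs averaged. DTX3L, a ubiquitin ligase, was higher by 0.36 (adjusted p = 0.00624). From 3 h to 6 h, the step in which GBP2 fell, 10 of the 36 rose and 10 fell, with a median of -0.12. In that step 22.9% of all genes rose and 20.3% fell. Over the alternatives, 3 to 10 of the list rose and 8 to 11 fell. From 6 h to 12 h, 16 of the 36 rose and 0 fell, with a median of 0.27, where 8.70% of all genes rose and 11.9% fell. The count of 16 was 10 without 6 h replicate 3 and 10 with replicates 2 and 3 averaged at 6 h and 24 h, and 1 gene fell without 6 h replicate 1. IFIT1 was higher by 0.93 in that step (adjusted p = 4.2e-08) and IFITM1 by 0.59 (adjusted p = 2.1e-04). At 24 h against 0 h, medians were 0.44 for this list and 0.27 for the interferon gamma-inducible list, beside -0.002 for all genes, with no count since that comparison chose GBP4. At 12 h against 0 h, PARP14, an ADP-ribosyltransferase, was higher by 0.38 (adjusted p = 0.00497), while IFI27, a mitochondrial interferon-induced protein, was lower (-0.48, adjusted p = 0.00678).

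The split of all genes between higher and lower calls depended on the scaling between libraries. From 3 h to 6 h the share of calls that were higher was 53.1%, against 42.6% with upper-quartile factors and 63.8% with library size alone. At 6 h against 0 h it was 56.2% against 38.3% with upper-quartile factors, and from 6 h to 12 h it was 42.2% against 66.4% and 57.1%. At 12 h against 0 h it was 47.9%, and 58.7% with library size alone.

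**Figure D5:**
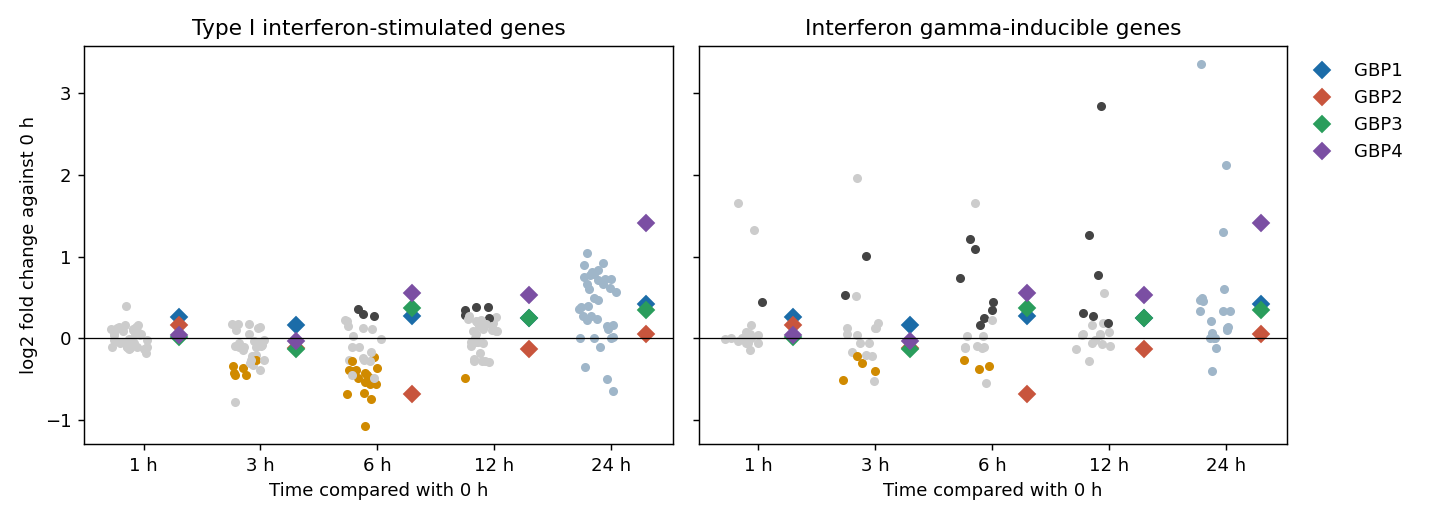
Log2 fold changes against 0 h of the type I interferon-stimulated genes (left) and interferon gamma-inducible genes (right), a point per gene at each time, with 4 GBPs as diamonds. Dark grey marks genes called higher, orange genes called lower and light grey genes not called. Pale blue marks the 24 h comparison, where no call is shown. At 6 h 17 of 36 type I genes were called lower, where 13.2% of all genes were.

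Genes for prenylation and control of GBPs were also measured. PIM1, a kinase that phosphorylates GBP1, fell by 0.80 from 0 h to 3 h (SE 0.072, adjusted p = 2.3e-07) and rose by 1.21 from 3 h to 6 h (SE 0.07, adjusted p = 1.7e-09). PGGT1B, a subunit of the geranylgeranyl transferase, rose in the same step by 0.34 (adjusted p = 0.00587), a call lost with the correction for length and GC content (0.01, adjusted p = 0.948). PIM1 at 12 h was higher than at 0 h by 0.48 (SE 0.065, adjusted p = 1.0e-04). ICMT, the methyltransferase that finishes prenylated ends, was lower by a log2 change of -0.24 at 12 h (SE 0.052, adjusted p = 0.00493). Of the 7 genes of this list, 3 rose and 0 fell from 3 h to 6 h, beside 22.9% and 20.3% of all genes, and 1 fell with upper-quartile factors or the length and GC correction. FNTB, a farnesyltransferase subunit, was lower at 6 h than at 0 h (-0.27, adjusted p = 0.0157), a call lost without 0 h replicate 2 (-0.23, adjusted p = 0.0653) or 6 h replicate 3 (-0.22, adjusted p = 0.0981), with the close pairs averaged and with the length and GC correction.

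Several partners of GBPs in inflammasome signalling were also measured. PYCARD, an inflammasome adaptor, was lower from 3 h to 6 h (-0.84, SE 0.19, adjusted p = 0.00137) and higher from 6 h to 12 h (0.68, SE 0.18, adjusted p = 0.0127), the latter lost without 6 h replicate 3 (0.54, adjusted p = 0.0844) or 12 h replicate 1 (0.57, adjusted p = 0.0632). AIM2, a DNA sensor, was higher from 6 h to 12 h by 0.76 (SE 0.14, adjusted p = 7.2e-04). CASP4, the caspase that GBPs bring to bacterial lipopolysaccharide, had a change of -0.19 from 3 h to 6 h that did not pass the test (adjusted p = 0.0526) and passed in 10 of 31 alternatives. Of the 9 genes tested, 0 rose and 2 fell in that step, beside 22.9% and 20.3% of all genes. NLRP3, an inflammasome sensor, was higher at 6 h than at 0 h (0.56, adjusted p = 0.0186), a call lost without 0 h replicate 1 or 3 or 6 h replicate 2 or 3, with the close pairs averaged and with DESeq2 (highest adjusted p of 0.0954).

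Among sensors and factors of type I and III interferon, CGAS, a DNA sensor, was higher at 6 h than at 0 h (0.45, SE 0.071, adjusted p = 1.5e-04) and TLR3, a sensor of double-stranded RNA, was lower (-0.78, SE 0.16, adjusted p = 0.00151). Of the 12 genes of this list tested, 4 rose and 3 fell in that comparison, where 16.9% of all genes rose and 13.2% fell. The count that fell was as low as 1 over the alternatives and moved without 0 h replicate 2 or 3, without 6 h replicate 2 or 3, and with the close pairs averaged. IRF9, the DNA-binding part of the complex that recognises the ISRE, was higher at 12 h than at 0 h by 0.49 (SE 0.11, adjusted p = 0.00754). MAVS, the adaptor of RNA sensors, was higher by 0.21 (adjusted p = 0.0267), a call lost without 0 h replicate 1 or 3 or 12 h replicate 2 or 3 (highest adjusted p of 0.137). Of 12 dynamin-related GTPases outside the GBP family, 4 rose and 1 fell at 6 h against 0 h, beside the same shares of all genes. The count that rose was as low as 1, and moved without 0 h replicate 1 and with the close pairs averaged, and the gene that fell, DNM1 (-0.27, adjusted p = 0.021), was lost in 5 of 31 alternatives, among them without 0 h replicate 1. IRGQ, a relative of the immunity-related GTPases, was higher by 0.57 (SE 0.086, adjusted p = 1.1e-04), and DNM1, a dynamin of membrane uptake, was lower at 12 h than at 0 h (-0.57, SE 0.087, adjusted p = 3.2e-04).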

How the data were processed

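RNA was measured by sequencing of poly(A)-selected, stranded libraries, per the labels' protocols. The authors deposited 1 table of expected counts (fragments assigned to each gene by estimation, not scaled); hg38, STAR 2.7.0f and cutadapt 1.18 appear in the submitters' processing notes. The RSEM version, the annotation and the strand setting of the counting are not given in the sources used here, so overlapping or antisense genes could exchange counts. GENCODE 29, used for positions and lengths, held 47456 of the 58870 identifiers in the same version and 58597 when versions were ignored.

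Counts were rounded and filtered with filterByExpr, scaled by TMM and fitted in edgeR 4.0.16 (R 4.3.3) with 1 mean per time over all 17 libraries, robust quasi-likelihood tests, and Benjamini-Hochberg adjustment over the 15365 genes tested. The common biological coefficient of variation was 7.06%. Columns of the table not tied to a sample numbered 0. The model was tested on simulated data. For correlations, 2 was the prior count of log2 CPM.

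The members and gene lists were chosen with earlier results of these data known. Genes named were the 5 members, other GBP genes, IRF1, STAT3, JAK2, PIM1 and CASP4, and from each list the highest and lowest called gene at 6 h and 12 h against 0 h; MX1, IFIT1, TAP1, CXCL11, PGGT1B, AIM2 and the list members named in other steps were picked after their values were seen. An item the rule also covers is not reported here. Alternatives were RLE, upper-quartile and library-size scaling, other filters, non-robust fits, limma-voom (3.58.1), DESeq2 (1.42.0), unrounded counts, a length and GC correction, the replicate number as a block, only the times compared, the close pairs averaged, and each library left out. The length and GC correction took each gene's longest transcript of any kind, not the longest coding one. The GBP1 and GBP3 sum and the ratio were added after seeing the data.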

Additional observations from a re-analysis of the deposited data

How the results depend on the processing

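The fold changes and counts of calls of the members, and those of the listed genes, were recomputed under 31 alternatives, except that CXCL10 at 12 h against 0 h gave a value in 27 and CXCL11 in 30. The correlations, the likeness ranks and the sum of GBP1 and GBP3 were not recomputed. GBP2 kept its direction and its call in all of them from 3 h to 6 h (-0.63 to -0.50), from 6 h to 12 h (0.51 to 0.63) and at 6 h against 0 h (-0.75 to -0.65), and GBP3 from 3 h to 6 h (0.42 to 0.57). The number of members called was 2 at 12 h against 0 h and 0 to 2 with 1 library left out. It was 1 from 6 h to 12 h and 2 with the length and GC correction, alone or with the replicate block (GBP3 passed, at -0.15). From 12 h to 24 h it was 0, and 1 with library size only and with the length and GC correction, alone or with the block. At 3 h against 0 h it was 0, and 1 with that correction, alone or with the block, and 0 to 1 with 1 library left out. From 1 h to 3 h it was 0 and 0 to 1 with 1 library left out. The cause was not tested. Of 26 pairs of a list gene and a comparison named by the rule, 16 kept their call in every alternative and 10 lost it in at least 1. Deviations of same-numbered replicates from the mean of their time had correlations of -0.16 to 0.18, which were not tested. The replicate block alone changed none of these counts of members called (3 from 3 h to 6 h, 1 from 6 h to 12 h, 2 at 12 h against 0 h).

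The sign turned in changes that did not pass the test or were given without one, all within 0.16 of 0 (GBP2 at 1 h against 0 h). GBP1 from 6 h to 12 h was 0.06 with upper-quartile factors, 0.02 with library size only, 0.01 with only the times compared and -0.05 to 0.02 with 1 library left out. GBP4 in that step was 0.06 with upper-quartile factors, 0.02 with library size only, 0.01 with the length and GC correction (also with the block), with only the times compared and with the pairs averaged, and -0.15 to 0.09 with 1 library left out. At 1 h against 0 h, library size only gave -0.03 for GBP3 and -0.01 for GBP4, and leaving out 1 library gave -0.01 to 0.32 for GBP2, -0.04 to 0.08 for GBP3 and -0.11 to 0.26 for GBP4. At 3 h against 0 h GBP4 was 0.03 with the length and GC correction (also with the block) and -0.14 to 0.19 with 1 library left out, and at 3 h against 1 h -0.20 to 0.08. CASP4 from 6 h to 12 h was -0.01 with the pairs averaged and -0.04 to 0.04 with 1 library left out. JAK2 was 0.01 from 6 h to 12 h with upper-quartile factors, and at 6 h against 0 h -0.01 with those factors, -0.06 with the length and GC correction (also with the block) and -0.05 to 0.13 with 1 library left out. Counting depth limits GBP5, at 1 to 11 counts per library.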
